A study of Homo sapiens with 16 samples.

Results

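Aminoacyl-tRNA synthetases are the enzymes that join each amino acid to its tRNA, and so supply the ribosome with charged tRNA. Most amino acids have 1 enzyme for the cytosol and another for the mitochondrion, both encoded in the nucleus and translated on cytosolic ribosomes. In the table of all genes, 35 synthetase genes were found by symbol, with their Entrez identifiers, out of 18991 genes counted. Of these, 17 encode cytosolic enzymes, 16 encode mitochondrial enzymes, and 2, GARS for glycine and KARS for lysine, encode both forms from 1 gene. The valyl enzymes VARS and VARS2 were not among the 35, so sums and ranks below do not cover every amino acid.

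The measurements came from MOLM13, a human acute myeloid leukemia cell line that carries a KMT2A fusion and here expressed Cas9. One population carried a single guide RNA against YBX1 (sgYBX1) and the control population carried a non-targeting guide (sgLUC). Both were transduced with lentivirus, selected and collected at day 14, and both were transduced pools rather than clones. From each, total poly(A) RNA and poly(A) RNA of pooled polysomal sucrose gradient fractions were sequenced. This gave 4 groups of 4 libraries, namely sgLUC total, sgYBX1 total, sgLUC polysomal and sgYBX1 polysomal. YBX1 encodes the Y-box binding protein, named for binding to the Y box, a promoter element holding an inverted CCAAT, and known as an mRNA-binding protein in the cytoplasm. A further guide against YBX1 was not part of these libraries, so an effect of this guide and an effect of YBX1 loss cannot be told apart.

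Libraries held 38326270 to 66164414 counts. Levels below are CPM, counts relative to each library's total after scaling by edgeR's TMM method. YBX1 itself fell from 887 ± 21.2 to 519 ± 23.3 (SD, n = 4) in total RNA and from 875 ± 76.1 to 645 ± 17.1 in polysomal RNA, 58.6% and 73.7% of the control (exact permutation test, two-sided, p = 0.0286 for each, the smallest that 4 against 4 libraries allow). Its mRNA was therefore reduced but present under sgYBX1. The level of mRNA does not measure YBX1 protein, which was not part of these libraries. For protein, the study's supplement describes a Western blot as knockout control in the 4 cultures that were then fractionated. All 10 myeloid markers looked at exceeded 1 CPM on average in every group but sgYBX1 polysomal, where 9 did. Erythroid and fibroblast markers summed to at most 1.09 CPM in any library. Of the lymphoid markers, CD3D exceeded 1 CPM in the polysomal groups. Of the epithelial markers, KRT18 exceeded 1 CPM in every group and KRT8 in the polysomal groups, and the list summed to 4.38 to 5.57 CPM under sgLUC and 6.69 to 8.25 CPM under sgYBX1 in total RNA, and to 24.3 to 29.6 and 33.3 to 43.8 CPM in polysomal RNA, without overlap between guides in either. The myeloid list summed to 2859 to 3167 CPM in sgLUC total RNA and 2092 to 2135 CPM in sgYBX1 total RNA, also without overlap. Its polysomal sums overlapped. The lower myeloid sum in total RNA was not shared by most of the list. By gene, 7 of the 10 had a log2 fold change above 0 there and 3 below, with a median of 0.07. In polysomal RNA 2 were above 0 and 8 below, with a median of -0.23. There 1 was called higher and 3 lower, beside 11.3% and 9.93% of all genes tested. The part of these markers in the results was not tested. The typical coefficient of variation between replicates (edgeR) was 0.0562 and 0.0378 in the sgLUC and sgYBX1 total groups and 0.22 and 0.149 in the polysomal groups. Comparisons between guides and between fractions were each fitted on their own 8 libraries, and those between fractions join groups of unequal spread.

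The synthetases fall into classes by the fold of their catalytic domain, class I and class II. In the cytosol, EPRS, IARS, LARS, MARS, QARS, RARS, KARS and DARS assemble into the multi-synthetase complex around the scaffold proteins AIMP1, AIMP2 and EEF1E1. EPRS carries the activities for glutamate and proline in 1 polypeptide, and FARSA and FARSB are the subunits of the cytosolic enzyme for phenylalanine. Many cytosolic synthetase genes are also known targets of ATF4, the transcription factor of the amino acid response, which binds C/EBP-ATF response elements of the form TGATGNAA.

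Upstream sequences were available for 30 of the 35 genes in RefSeq (GRCh38.p14), and AARS2, DARS, LARS and YARS were among those not matched. The 250 bases before the annotated start were searched for CCAAT and for TGATGNAA on both strands, taking 1 promoter per gene. CCAAT was found in 16 of the 30 synthetase promoters and in 33.0% of 27305 promoters of all genes. TGATGNAA was found in 3 of the 30, AARS, IARS and YARS2, and in 3.19% of all promoters. Matches in 4 synthetases whose values are given below are shown 5′ to 3′ in windows of at most 30 bases each, the match in capitals. QARS is shown because it was lower in both fractions, IARS and AARS because both hold TGATGNAA, and NARS because it had the largest rise in polysomal RNA. Of the other synthetases called between guides below, EPRS held neither motif, while IARS2 held 1 CCAAT match and TARS 2.
QARS, CCAAT, 74 bases before the start, chr3:49104815-49104843, minus strand: aggaaggaccccATTGGctctccccggag
QARS, CCAAT, 46 bases before the start, chr3:49104787-49104815, minus strand: ggcttcactctcATTGGtcagcgagtgaa
IARS, TGATGNAA, chr9:92293698-92293721, minus strand: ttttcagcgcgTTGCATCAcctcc
AARS, TGATGNAA, chr16:70289675-70289704, minus strand: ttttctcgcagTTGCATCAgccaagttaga
NARS, CCAAT, chr18:57621863-57621891, minus strand: cacctctcgtaaCCAATggaaccgcggcg
QARS holds 2 CCAAT matches, both in the inverted form ATTGG, while IARS and AARS also hold 1 CCAAT match in each orientation and NARS holds 1 as CCAAT. The TGATGNAA match reads TTGCATCA on the strand shown in both AARS and IARS. The start of these genes differs between annotations. GENCODE places it further upstream than RefSeq, so that all 250 bases searched for QARS and NARS, 59 of those for IARS and 37 of those for AARS lie in untranslated exons of the same gene there. The matches shown for QARS, NARS and IARS are inside such exons, and that of AARS is not. A match is a description of the letters only, and binding was not measured in these libraries.

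Levels of different genes can be compared only per length, so CPM was divided by the kilobases of all annotated exons of the gene (RPKM). In sgLUC total RNA the range ran from FARSA at 143 ± 6.07 RPKM to PARS2, the mitochondrial prolyl enzyme, at 3.22 ± 0.251 RPKM (SD, n = 4), leaving CARS aside. After FARSA came EPRS at 65.9 ± 3.74 RPKM, above the next group of KARS at 53.7 ± 2.43 and NARS, the asparaginyl enzyme, at 53.0 ± 1.65 RPKM, which lay within 1 SD of each other. QARS, the glutaminyl enzyme, at 49.5 ± 0.662 RPKM and AARS, the alanyl enzyme, at 47.5 ± 0.639 RPKM followed. The highest mitochondrial member was IARS2, the isoleucyl enzyme, at 30.6 ± 1.34 RPKM, rank 11 of 35, and HARS was the lowest cytosolic member with appreciable counts at 7.66 ± 0.241 RPKM. The order depends on the length used. By coding length EPRS ranked 8 in sgLUC total RNA, behind NARS, KARS, YARS, QARS, TARS and IARS as well as FARSA, HARS ranked 20, and CARS2 at rank 15 was above IARS2 at rank 18. CARS, the cytosolic cysteinyl enzyme, held 0 to 8 counts per library in total RNA and 1 to 18 in polysomal RNA. CARS did not pass the filter on low counts and was not tested, so 34 of the 35 members were. The annotation used for counting is not given in the sources used here, so whether these counts reflect the level of CARS was not tested.

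**Figure D1:**
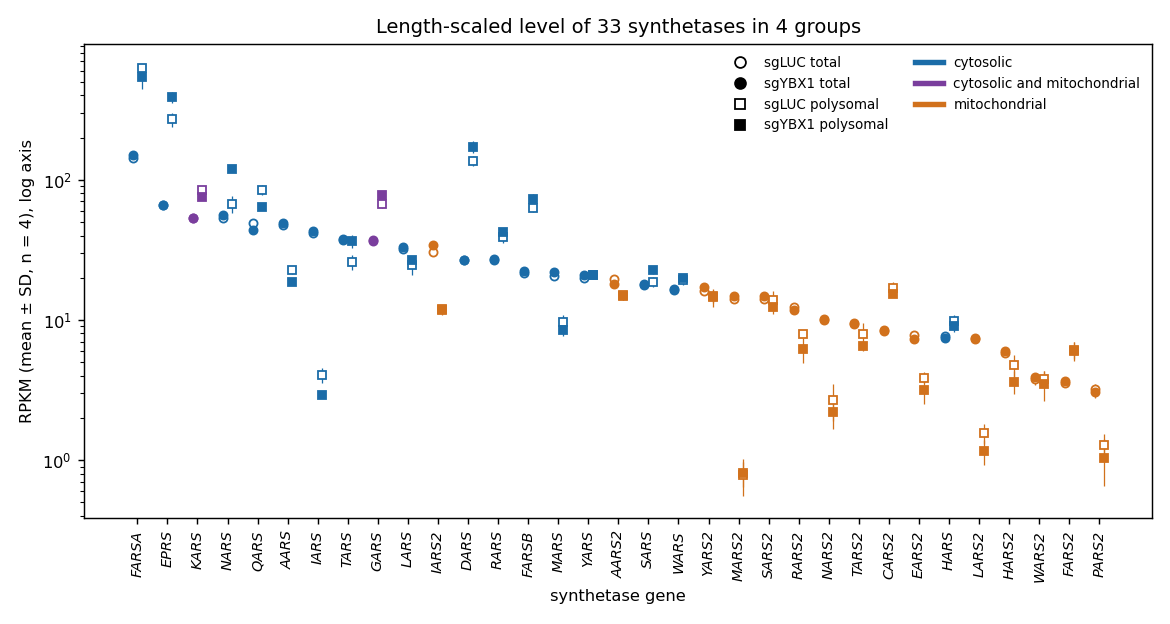
Mean RPKM ± SD (n = 4 libraries, log axis) of 33 of the 34 tested synthetases in the 4 groups, ordered by their level in sgLUC total RNA. Open symbols are sgLUC, filled symbols sgYBX1, circles total RNA and squares polysomal RNA. FARSA is highest at 143 RPKM in sgLUC total RNA and 623 RPKM in sgLUC polysomal RNA, and IARS drops from 41.6 to 4.05 RPKM between these groups.

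Summed over members, cytosolic synthetases made up 2967 ± 76.3 CPM of sgLUC total RNA and 3019 ± 26.0 CPM of sgYBX1 total RNA (SD, n = 4). In polysomal RNA the same sum was 5545 ± 257 CPM for sgLUC and 6357 ± 452 CPM for sgYBX1, with ranges of 5252 to 5876 and 5781 to 6883 CPM that overlapped. Long and abundant mRNAs weigh most in such a sum. Within it the EPRS mean went from 1467 to 2121 CPM and the FARSA mean from 1518 to 1318 CPM. The 16 mitochondrial members summed to 757 ± 14.5 and 767 ± 4.83 CPM in total RNA and to 538 ± 4.55 and 489 ± 12.3 CPM in polysomal RNA. Their polysomal sums did not overlap between guides, at 532 to 542 CPM for sgLUC and 471 to 499 CPM for sgYBX1. As shares of all counts, without TMM scaling, the 35 genes took 0.561% and 0.587% in total RNA and 0.508% and 0.509% in polysomal RNA for sgLUC and sgYBX1. In bulk libraries, fewer cells of a kind and less RNA per cell cannot be told apart.

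The first comparison asked how the synthetase mRNAs differed between sgYBX1 and sgLUC in total RNA. Differences were small. Of the 34 tested members, 1 rose, 2 fell and 31 did not pass an adjusted p of 0.05 (edgeR quasi-likelihood test, Benjamini-Hochberg over 12517 genes), against 6.53% of all genes tested called higher and 9.34% called lower. Log2 fold changes ran from -0.18 to 0.15, with a median of 0.02 for the members and -0.01 for all genes. The nearest to a call among the others was MARS, the methionyl enzyme, at 0.10 ± 0.04 (edgeR adjusted p = 0.0594). Without sgLUC total replicate 2, the shallowest library, MARS was called (adjusted p = 0.0102), as was EARS2 (adjusted p = 0.0131), and 3137 genes of all kinds were called in place of 1986. Scaled by library totals alone, without TMM, 9 members were higher and 1 lower, beside 11.5% and 5.95% of all genes.

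QARS fell. Its gene lies at chr3:49095932-49105135 on the minus strand (GRCh38), and its product charges the tRNA for glutamine as part of the complex. In total RNA it stood at 237, 232, 229 and 234 CPM in the sgLUC libraries and at 208, 201, 205 and 206 CPM in the sgYBX1 libraries. All 4 sgYBX1 libraries were below all 4 controls, a log2 fold change of -0.18 ± 0.03 (SE, edgeR adjusted p = 0.000287). In polysomal RNA it stood at 420, 426, 351 and 398 CPM under sgLUC and 287, 310, 315 and 292 CPM under sgYBX1. The groups again did not overlap, with a log2 fold change of -0.40 ± 0.11 (adjusted p = 0.00963). QARS was the only member called in both fractions. The difference between its changes, -0.22 ± 0.10 on the log2 scale, did not pass the test (adjusted p = 0.121). It did pass without sgLUC polysomal replicate 3 (edgeR adjusted p = 0.0221) and when scaled by library totals alone.

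IARS2, the mitochondrial isoleucyl enzyme at chr1:220094102-220148041 on the plus strand, rose in total RNA. Its sgLUC libraries held 134, 121, 128 and 126 CPM and its sgYBX1 libraries 143, 142, 139 and 142 CPM, without overlap. The log2 fold change was 0.15 ± 0.04 (edgeR adjusted p = 0.00489), and in polysomal RNA it was -0.04 ± 0.12 (adjusted p = 0.872). AARS2, the mitochondrial alanyl enzyme at chr6:44299654-44313326 on the minus strand, held 82.6, 83.6, 84.7 and 84.1 CPM under sgLUC and 77.8, 77.3, 77.7 and 77.9 CPM under sgYBX1. All sgYBX1 libraries were lower, with a log2 fold change of -0.11 ± 0.04 (adjusted p = 0.0364). The AARS2 call was lost when any sgYBX1 library or sgLUC replicate 3 or 4 was left out (adjusted p = 0.0604 to 0.105), and in polysomal RNA its log2 fold change was -0.03 ± 0.11. Exons of AARS2 also overlap TMEM151B on the other strand, and whether reads were counted by strand is not given in the sources used here.

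With all 16 libraries in 1 fit, which gives both fractions 1 shared estimate of spread, 0.463% of genes were called higher and 0.623% lower in total RNA. No synthetase was called there, and the adjusted p was 0.386 for QARS, 0.676 for IARS2 and 0.925 for AARS2. The replicate coefficients of variation of the fractions are those given above.

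**Figure D2:**
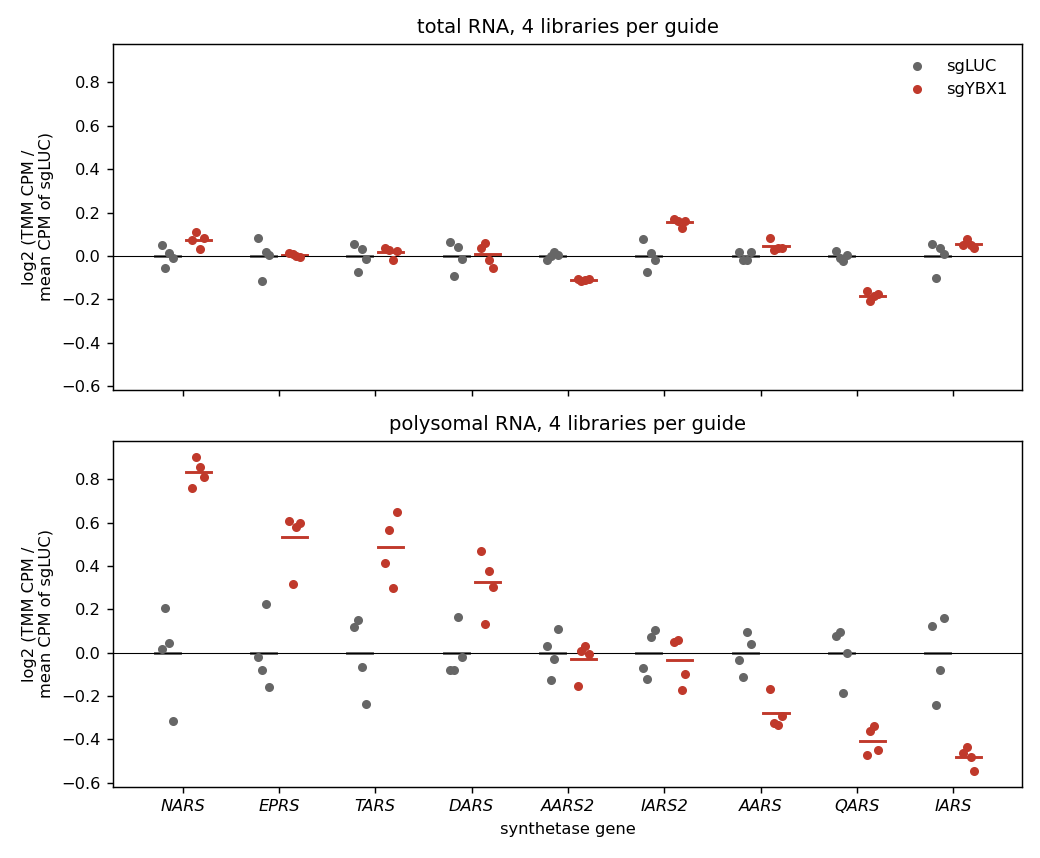
Each point is 1 library: log2 of its TMM-scaled CPM over the mean CPM of the sgLUC libraries of the same fraction, for the 9 synthetases called in total RNA, in polysomal RNA or in the difference between them. Bars are group means. In polysomal RNA all sgYBX1 libraries lie above all sgLUC libraries for NARS, EPRS and TARS and below them for AARS, QARS and IARS, while in total RNA, of these 9, QARS, AARS2, IARS2 and AARS separate. Some members outside these 9 also separate, such as FARSB, GARS, SARS and LARS2 in polysomal RNA. In total RNA, MARS, MARS2 and SARS2 do so. The share of all genes that separate was not computed.

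The same comparison in polysomal RNA asked which synthetase mRNAs were more or less abundant among polysome-bound mRNAs under sgYBX1. NARS, EPRS, TARS and DARS, all 4 cytosolic, rose, and 2 fell, IARS and QARS, while the other 28 did not pass the test. Of all genes tested, 11.3% were called higher and 9.93% lower, so 4 and 2 of 34 are near the background. Members' log2 fold changes ran from -0.48 to 0.83 with a median of -0.12, against -0.03 for all genes. Without sgYBX1 polysomal replicate 4, 1724 genes of all kinds were called in place of 2655.

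NARS, which charges the tRNA for asparagine and lies at chr18:57600656-57622213 on the minus strand, had the largest change. Its polysomal level was 279, 318, 284 and 221 CPM in the sgLUC libraries and 466, 516, 499 and 483 CPM in the sgYBX1 libraries. Every sgYBX1 library was above every control, a 1.78-fold rise with a log2 fold change of 0.83 ± 0.12 (SE, edgeR adjusted p = 2.51e-05). In total RNA it stood at 224, 208, 219 and 215 CPM under sgLUC and 228, 234, 221 and 229 CPM under sgYBX1. These ranges overlapped, with a log2 fold change of 0.07 ± 0.03 (adjusted p = 0.159).

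EPRS, the joint glutamyl and prolyl enzyme at chr1:219968601-220046658 on the minus strand, ranked 2 of 35 by RPKM over exon length in every group and from 2 to 8 by coding length. In polysomal RNA it held 1449, 1389, 1715 and 1316 CPM under sgLUC and 2235, 1830, 2197 and 2225 CPM under sgYBX1. The groups did not overlap, although sgYBX1 replicate 2 stood nearer to the controls than the other 3. The log2 fold change was 0.53 ± 0.12 (edgeR adjusted p = 0.00178), and in total RNA it was 0.00 ± 0.04 (adjusted p = 0.964), with group means of 359 and 360 CPM.

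TARS, the threonyl enzyme at chr5:33440696-33469539 on the plus strand, held 162, 165, 142 and 126 CPM in sgLUC polysomal libraries and 199, 220, 183 and 233 CPM in sgYBX1 polysomal libraries. All 4 sgYBX1 libraries were higher, with a log2 fold change of 0.49 ± 0.12 (edgeR adjusted p = 0.00359), while its total RNA means were 214 and 216 CPM. DARS, the aspartyl enzyme of the complex at chr2:135906677-135986100 on the minus strand, held 521, 520, 617 and 543 CPM under sgLUC and 762, 603, 715 and 680 CPM under sgYBX1. Replicate 2 of sgYBX1 lay within the control range, and the log2 fold change was 0.33 ± 0.12 (adjusted p = 0.0439). The DARS call held without sgLUC replicate 3 and without sgYBX1 replicate 2, and was lost without any other single polysomal library, those being sgLUC replicates 1, 2 and 4 and sgYBX1 replicates 1, 3 and 4 (adjusted p = 0.0707 to 0.127).

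IARS, the cytosolic isoleucyl enzyme of the complex at chr9:92210207-92293756 on the minus strand, fell from an already low polysomal level. Its sgLUC libraries held 32.7, 25.4, 28.4 and 33.5 CPM and its sgYBX1 libraries 21.8, 22.2, 21.5 and 20.5 CPM. No values overlapped, and the log2 fold change was -0.48 ± 0.13 (edgeR adjusted p = 0.00788). In total RNA IARS held 320, 287, 316 and 310 CPM under sgLUC and 319, 325, 319 and 316 CPM under sgYBX1, a log2 fold change of 0.05 ± 0.04 (adjusted p = 0.355).

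By compartment, the 16 tested cytosolic members had a median log2 fold change of 0.08 in polysomal RNA, with 9 above 0 and 7 below. GARS stood at 0.20 ± 0.11 and KARS at -0.15 ± 0.11, neither past the test. The 16 mitochondrial members had a median of -0.22, with 14 below 0 and 2 above, beside 6601 of all 12517 genes below 0. None of the 16 passed the test, and their median SE was 0.15. The lowest of them were LARS2 at -0.43 ± 0.18 (edgeR adjusted p = 0.0890), HARS2 at -0.38 ± 0.16 (adjusted p = 0.0921) and RARS2 at -0.37 ± 0.15 (adjusted p = 0.0699), the leucyl, histidyl and arginyl enzymes of the mitochondrion. In total RNA the mitochondrial median was 0.02 and the cytosolic median 0.04. Of the complex, EPRS and DARS rose and IARS and QARS fell in polysomal RNA, and LARS, MARS, RARS and KARS were not called. The other cytosolic members not called were FARSA at -0.20, FARSB at 0.21, HARS at -0.12, SARS at 0.28, WARS at 0.04, YARS at 0.00 and AARS at -0.28, as log2 fold changes. Among the other mitochondrial members, CARS2 stood at -0.13, NARS2 and TARS2 each at -0.28, EARS2 at -0.29, FARS2 at -0.02, MARS2 and YARS2 each at 0.03, PARS2 at -0.31, SARS2 at -0.15 and WARS2 at -0.13. Leaving out 1 library brought in a call of FARSA (without sgYBX1 replicate 1, adjusted p = 0.0483), SARS (without sgLUC replicate 1, adjusted p = 0.0444), HARS2 (without sgLUC replicate 3, adjusted p = 0.0253) or RARS2 (without sgYBX1 replicate 4, adjusted p = 0.0309).

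With all 16 libraries in 1 fit, 17.2% of genes were called higher and 19.9% lower in polysomal RNA, and 7 synthetases rose and 8 fell. FARSB, GARS and SARS then joined the 4 higher members, and AARS, EARS2, HARS2, LARS2, RARS2 and TARS2 joined IARS and QARS among the lower. On library totals alone the median of all genes in polysomal RNA moved from -0.03 to -0.18 and the counts became 3 higher and 11 lower, beside 7.42% and 20.9% of all genes, so the values here are relative to the bulk of genes. On that scaling NARS, EPRS and TARS were still called higher and IARS and QARS lower, while DARS was not called (adjusted p = 0.223).

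**Figure D3:**
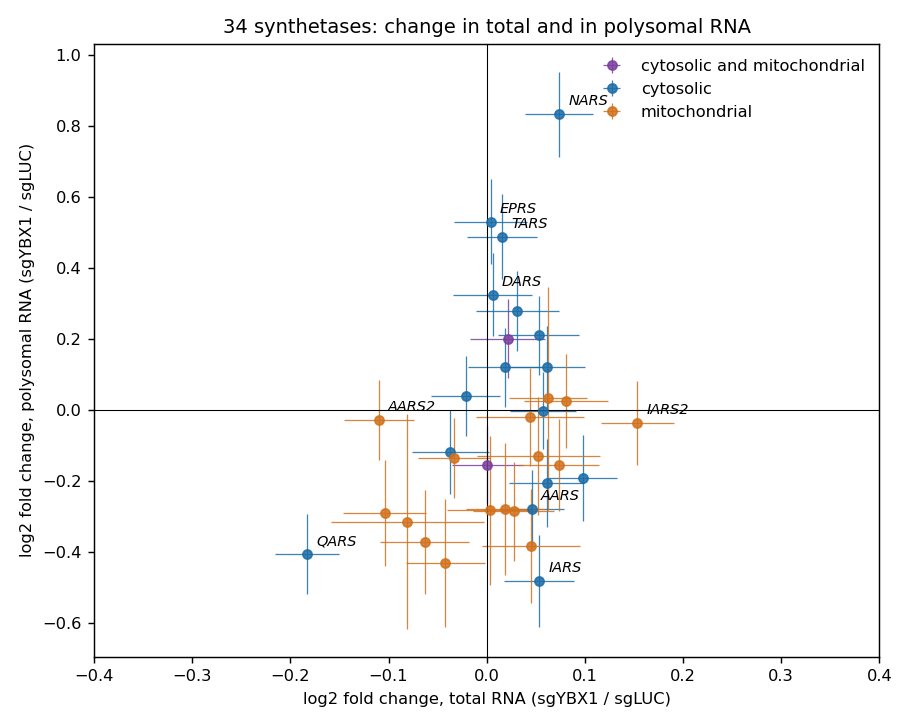
Log2 fold change of sgYBX1 over sgLUC in total RNA (horizontal axis) against polysomal RNA (vertical axis), ± SE, for the 34 tested synthetases, coloured by the compartment of the enzyme. Total RNA changes stay between -0.18 and 0.15 and polysomal changes between -0.48 and 0.83. On the vertical axis 14 of the 16 mitochondrial members lie below 0, beside 6601 of all 12517 genes tested.

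Whether the change in polysomal RNA differed from that in total RNA was tested directly, in a fit of all 16 libraries with the difference of the changes as contrast. That fit gives both fractions 1 shared estimate of spread, although replicates varied more in polysomal RNA. The difference was positive for NARS at 0.76 ± 0.12 (edgeR adjusted p = 0.000352), EPRS at 0.53 ± 0.12 (adjusted p = 0.00409), TARS at 0.47 ± 0.12 (adjusted p = 0.00935) and DARS at 0.32 ± 0.11 (adjusted p = 0.0497), on the log2 scale. It was negative for IARS at -0.53 ± 0.11 (adjusted p = 0.00255) and AARS at -0.32 ± 0.09 (adjusted p = 0.0196). Of all genes tested, 9.84% were called higher and 6.89% lower in this contrast, and 4 and 2 of 34 members were. The same 4 and 2 were called when each fraction was fitted alone and the changes subtracted, by a normal approximation. The DARS call was lost in 13 of the 16 fits that left out 1 library. It was kept only without sgLUC total replicate 2, sgLUC polysomal replicate 3 or sgYBX1 polysomal replicate 2. Calls of lower members also came in when 1 polysomal library was left out. They were FARSA (edgeR adjusted p = 0.00797), MARS (0.0254 and 0.0491), HARS2 (0.0188), QARS (0.0221), RARS2 (0.0250) and TARS2 (0.0436), not all in the same fit. Scaled by library totals alone, 2 members were called higher, EPRS and NARS, and 14 lower, beside 5.41% and 21.5% of all genes, with the median of all genes moving from -0.04 to -0.23.

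AARS, the cytosolic alanyl enzyme at chr16:70252295-70289543 on the minus strand, was called in the difference alone. In total RNA it held 216, 211, 211 and 216 CPM under sgLUC and 226, 218, 219 and 219 CPM under sgYBX1, and in polysomal RNA 99.7, 94.5, 109 and 105 CPM under sgLUC and 90.9, 81.4, 81.0 and 83.4 CPM under sgYBX1. The guides did not overlap in either fraction, higher in total and lower in polysomal RNA, but neither change passed the test by itself (0.05 ± 0.03, edgeR adjusted p = 0.391, and -0.28 ± 0.11, adjusted p = 0.0716). With the spread shared between fractions, the SE of the AARS difference, 0.09, was below the 0.11 of its polysomal change alone. Mitochondrial members had a median difference of -0.21, with 15 of 16 below 0 and none called, beside 6732 of all 12517 genes below 0. Cytosolic members had a median of 0.06. These genes share the same libraries and scaling, so their directions are not independent.

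The remaining comparison set polysomal against total RNA within each guide. These 2 RNA fractions were prepared by different extraction methods, so an effect of preparation and of ribosome loading cannot be told apart. In sgLUC, 13 of 34 members were higher in polysomal RNA and 15 lower, near the 38.2% and 41.4% of all genes so called, and in sgYBX1 14 were higher and 17 lower, against 40.6% and 44.0%. The members' median log2 ratio was -0.09 in sgLUC and -0.20 in sgYBX1, beside -0.08 and -0.10 for all genes. These ratios are relative to the bulk of genes. Scaled by library totals alone, the median of all genes moved to -0.93 in sgLUC and -1.15 in sgYBX1, and in each guide DARS, EPRS, FARSA and FARSB were the 4 members called higher while 26 and 28 were called lower. Of all genes, 22.1% were then higher and 59.9% lower in sgLUC, and 21.8% and 65.2% in sgYBX1.

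Among cytosolic members, the highest and the lowest ratio in sgLUC both belonged to the multi-synthetase complex. DARS had a log2 ratio of 2.35 ± 0.09 in sgLUC (edgeR adjusted p = 5.37e-11) and EPRS of 2.03 ± 0.10 (adjusted p = 4.40e-10), whereas IARS had -3.36 ± 0.11 (adjusted p = 1.71e-11). The IARS mean went from 308 CPM in total to 30.0 CPM in polysomal RNA in sgLUC, and from 320 to 21.5 CPM in sgYBX1, where its ratio was -3.89 ± 0.06. IARS thus ranked 7 of 35 by RPKM in sgLUC total RNA and 27 of 35 in sgLUC polysomal RNA, or 7 and 29 by coding length. Outside the complex, the 2 subunits of the phenylalanyl enzyme, FARSA at 2.13 ± 0.08 and FARSB at 1.55 ± 0.08, were both high in sgLUC. AARS at -1.07 ± 0.08 and MARS, the methionyl enzyme of the complex, at -1.10 ± 0.09 were low.

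The median log2 ratio of the mitochondrial members was -0.50 in sgLUC and -0.83 in sgYBX1, beside 0.28 and 0.30 for cytosolic members. In sgLUC, 10 of the 16 were called lower, beside 41.4% of all genes, 4 were not called and 2 were called higher, CARS2 at 1.00 ± 0.09 and FARS2 at 0.77 ± 0.11, the mitochondrial cysteinyl and phenylalanyl enzymes. In sgYBX1, 13 were called lower, beside 44.0% of all genes, and the same 2 higher. The lowest was MARS2, the mitochondrial methionyl enzyme, at -4.18 ± 0.17, which held 42.3 to 43.6 CPM in sgLUC total RNA and 1.52 to 3.24 CPM in sgLUC polysomal RNA. LARS2 at -2.26 ± 0.11 and NARS2 at -1.91 ± 0.17 were also low in sgLUC. Cytosolic and mitochondrial enzymes for the same amino acid could differ, as with NARS at 0.35 against NARS2 at -1.91 and IARS at -3.36 against IARS2 at -1.35. Over the 34 members, the ratio in sgLUC had Spearman's rho of -0.22 with coding length and 0.31 with the length-scaled level in total RNA, as a description across genes that share the same libraries.

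**Figure D4:**
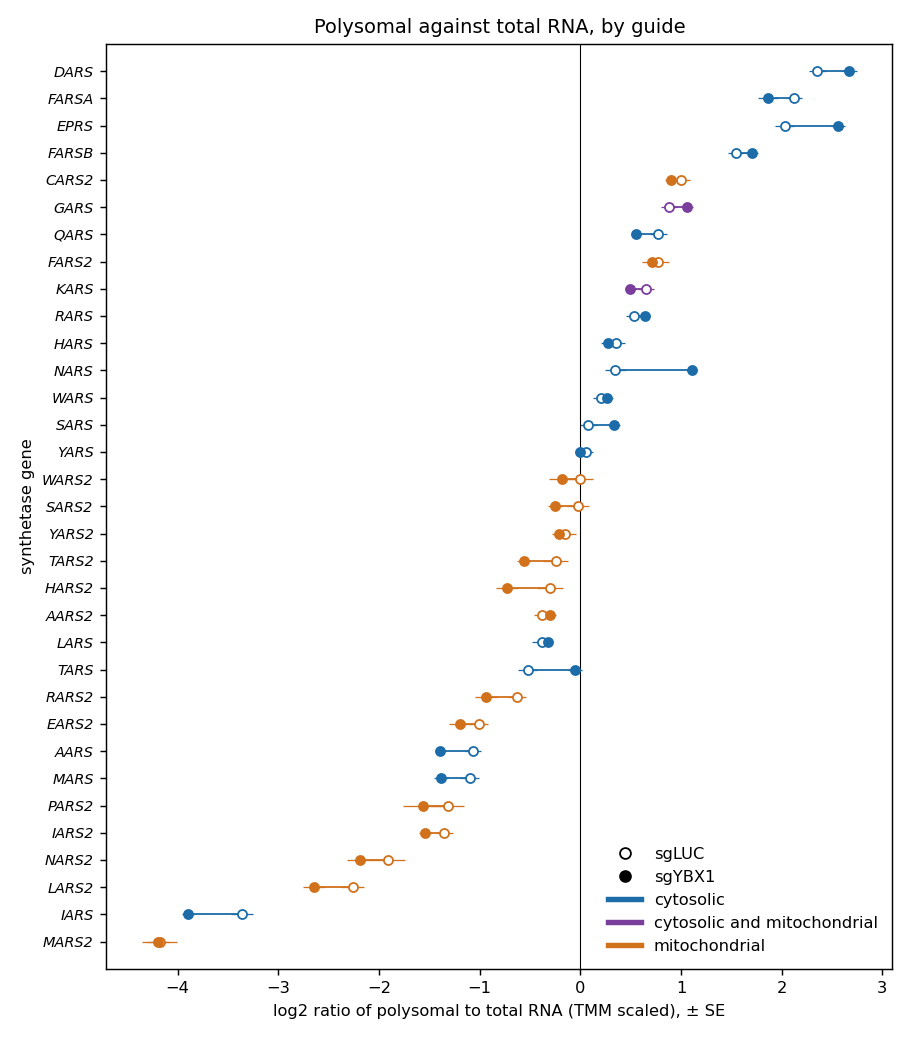
Log2 ratio of polysomal to total RNA, TMM scaled, ± SE, for 33 of the 34 tested synthetases in sgLUC (open) and sgYBX1 (filled), ordered by the value in sgLUC and coloured by compartment. Values run from -4.18 for MARS2 to 2.35 for DARS in sgLUC, and NARS shows the longest step between guides, from 0.35 to 1.11.

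For TARS the call itself differed between guides. It was lower in polysomal than in total RNA in sgLUC at -0.52 ± 0.09 (edgeR adjusted p = 0.000179) and not called in sgYBX1 at -0.05 ± 0.07 (adjusted p = 0.502), and NARS went from 0.35 ± 0.10 to 1.11 ± 0.05. Both steps are the difference tested above. The calls of WARS and HARS2 in sgLUC, at 0.21 ± 0.08 (adjusted p = 0.0346) and -0.30 ± 0.13 (adjusted p = 0.0441), were weak: WARS lost its call with a replicate block and without any 1 of the 4 sgLUC total libraries or sgLUC polysomal replicate 1 or 2 (adjusted p = 0.0591 to 0.0889), and HARS2 lost it without any library but sgLUC polysomal replicate 4 (adjusted p = 0.0532 to 0.101).

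Genes that work beside the synthetases were looked at from lists. Of the 3 scaffold proteins of the complex, AIMP1, which binds tRNA and holds the complex together, had a higher polysomal level under sgYBX1, with a log2 fold change of 0.65 (edgeR adjusted p = 0.00120) and EEF1E1 fell by 0.51 (adjusted p = 0.0353), with AIMP2 at -0.12 (adjusted p = 0.673). AIMP1 held 759, 733, 1101 and 780 CPM in sgLUC polysomal libraries and 1378, 995, 1429 and 1505 CPM in sgYBX1 polysomal libraries, so that sgYBX1 replicate 2 overlapped the controls. Its log2 ratio of polysomal to total RNA in sgLUC, 3.95, was above that of every synthetase. The difference between its changes was 0.58 (adjusted p = 0.0204).

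The 11 tested synthetases known as ATF4 targets had a median log2 fold change of 0.05 in total RNA with none called, and of 0.12 in polysomal RNA with NARS, EPRS and TARS higher and IARS lower. Of 22 other ATF4 targets and amino acid response genes, 3 rose in total RNA, ASNS, DDIT4 and VLDLR, and 1 fell, SLC7A11, and in polysomal RNA none rose and 3 fell, ALDH18A1, PHGDH and SHMT2. Of all genes, 6.53% were called higher and 9.34% lower in total RNA and 11.3% and 9.93% in polysomal RNA, which is the background for each of these lists. ATF4 itself stood at -0.06 in total RNA and 0.07 in polysomal RNA, neither past the test (edgeR adjusted p = 0.243 and 0.730). Class I members numbered 15 tested and class II members 18, with polysomal medians of -0.13 and -0.14.

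Downstream of charging, elongation factor 1 delivers aminoacyl-tRNA to the ribosome. Of its 5 listed subunit genes, 3 fell in total RNA, EEF1A2, EEF1B2 and EEF1G, and 2 in polysomal RNA, EEF1A2 and EEF1G, and none rose in either, beside 9.34% and 9.93% of all genes called lower. The mitochondrial amidotransferase and formyltransferase genes GATB, GATC, QRSL1 and MTFMT, which complete glutaminyl- and formylmethionyl-tRNA in the mitochondrion, had none called in either fraction. None of the 4 tested proofreading genes was called, all of them below 0 in polysomal RNA with a median of -0.25. Of 22 tRNA processing genes, 1 rose and 1 fell in total RNA and 4 rose and 5 fell in polysomal RNA, beside 11.3% and 9.93% of all genes. Named after their values were seen were SSB, the La protein that binds new tRNA ends, at 0.96 (edgeR adjusted p = 6.36e-06), and RTCB, the tRNA ligase, at -0.81 (adjusted p = 0.000163).

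Exons of 11 synthetase genes, among them AARS2, CARS2, EARS2, HARS, HARS2, KARS, MARS, SARS2, WARS and YARS, overlap another protein-coding gene on the other strand in GENCODE, and reads from such partners cannot be told apart without strand. Of these, HARS2 and SARS2 also overlap one on the same strand, where strand would not separate the reads. Pseudogenes named for NARS, IARS2, AARS and others also exist, and how shared reads were assigned is not given in the sources used here.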

How the data were processed

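The authors deposited whole-number read counts per gene, unnormalized, for 16 libraries. The submitters' processing notes list, with no order or role, GRCh38/hg38, featureCounts 2.0.1, STAR 2.7.8a, DESeq2 1.30.0 and Trimmomatic 0.36.5, while the annotation, strand setting and parameters are not given in the sources used here. Rows were read by the deposited Entrez identifier, because the table's symbol columns are displaced against it: ACTB ranks 4 by mean count by identifier and 5826 by symbol column. Rows whose identifier has no gene name hold 2.4e-05% of counts. Among deposited counts of 1 to 39, 62.1% were even, so a count may not always be 1 fragment. The authors' fold change and p columns were not used.

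Genes were filtered with edgeR's filterByExpr over the 4 groups and scaled by TMM over 16 libraries. Each comparison between guides or fractions was tested with edgeR 4.0.16 (quasi-likelihood, R 4.3.3) on its own 8 libraries, and the difference of changes on all 16, at a Benjamini-Hochberg adjusted p under 0.05 over 12517 genes, after a test on simulated data. Alternatives were other size factors, library totals only, no filter, DESeq2 1.42.0, limma 3.58.1 voom, a replicate block, a 16-library fit and leaving out each library. Lengths are from GENCODE v29, promoters from RefSeq. Figures were drawn with matplotlib 3.10.9. Members are named by a fixed rule, with values in every library for those called between guides, and the values of 1 member and 1 marker are not reported here. Members and lists were chosen with earlier results of these data known. The study's supplement describes the replicates as 4 cultures; whether they were transduced separately is not given in the sources used here, and p-values measure the spread between these libraries.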

Additional observations from a re-analysis of the deposited data

Results flagged for a closer look

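In the group of 4 sgYBX1 polysomal libraries, replicate 2 stood apart for EPRS at 1830 CPM, the other 3 holding 2197 to 2235 CPM. In sgYBX1 total RNA, replicate 1 stood apart for AARS at 226 CPM, the other 3 holding 218 to 219 CPM. These were 2 of 36 groups of 4 looked at by Dixon's criterion, and chance marks about 1 in 20. For DARS and AIMP1, sgYBX1 polysomal replicate 2 also stood nearest to the controls, but not for NARS or TARS. Its TMM factor was 0.719, beside 0.667 to 0.673 for the other sgYBX1 polysomal libraries. Whether that library differs as a whole was not tested. Without that EPRS library the rise remained called.

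For 6 synthetases the change under sgYBX1 differed between polysomal and total RNA by a test of the difference itself (edgeR, log2 scale): NARS at 0.76, EPRS at 0.53, TARS at 0.47, DARS at 0.32, AARS at -0.32 and IARS at -0.53. These were 4 higher and 2 lower of 34, beside 9.84% and 6.89% of all genes tested. DARS lost its call in 13 of the 16 fits that left out 1 library. On library totals alone DARS and TARS were not called.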

How the results depend on the processing

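The called changes of NARS, EPRS, TARS, IARS and QARS in polysomal RNA kept their direction and their side of the threshold under all 7 alternative settings and in all 8 fits that left out 1 library. QARS and IARS2 in total RNA lost their calls only in the 16-library fit. Members called in at least 1 comparison between guides numbered 15 with 16 libraries in place of 9, with 7 shared. Without TMM, by library totals, the synthetases called were 9 higher and 1 lower in total RNA, 11 lower in polysomal RNA, 2 higher and 14 lower in the difference (3371 genes in all against 2095), 4 higher and 26 lower for polysomal against total RNA in sgLUC, and 4 higher and 28 lower in sgYBX1. That setting also turned polysomal ratios in sgLUC for FARS2 (-0.078), HARS (-0.50), KARS (-0.20), NARS (-0.51), QARS (-0.074), RARS (-0.31), SARS (-0.77), WARS (-0.64) and YARS (-0.80), and in sgYBX1 for CARS2 (-0.15), FARS2 (-0.34), HARS (-0.78), KARS (-0.56), QARS (-0.50), RARS (-0.41), SARS (-0.72) and WARS (-0.78), by the shift in the median of all genes that the setting brings. The 16-library fit called 136 genes in total RNA, with 0 synthetases, and 4639 in polysomal RNA, with 7 higher and 8 lower. Limma voom called 2997 genes in total RNA, with 2 synthetases higher, and 4 lower in the difference, DESeq2 called 3 higher in total RNA, and without a filter 1 was lower in total RNA. Leaving out 1 library gave 1336 to 3137 genes in total RNA with 1 to 2 synthetases higher and 1 to 3 lower, 1724 to 2879 in polysomal RNA with 3 to 4 higher and 2 to 3 lower, and 1521 to 2734 in the difference with 3 to 4 higher and 2 to 5 lower. Polysomal against total RNA gave 9510 to 10130 genes in sgLUC (12 to 13 higher, 14 to 15 lower) and 10273 to 10649 in sgYBX1 (14 higher, 17 to 18 lower). The cause of these moves was not tested.

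Same-numbered libraries correlated at -0.15 to 0.37 in their deviations, and 4 of 16 pairs correlated best with their own number, so no clear pairing was seen. Such correlations cannot settle whether same-numbered libraries share a culture, because the wider spread between polysomal libraries could hide it. With a replicate block 1902 genes were called in total RNA, 2637 in polysomal RNA and 1968 in the difference, and of the synthetases called between guides DARS alone lost a call, in the difference (adjusted p = 0.0660). With the block, polysomal against total RNA in sgLUC called 12 synthetases higher and 16 lower, WARS losing its call and TARS2 gaining one. By coding length in place of exon length, 8 of the 10 highest members stayed among the 10 highest. CARS, at 0 to 18 counts, is below what these depths can compare, and MARS2 and PARS2 rest on 57 to 136 counts per polysomal library.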
